A study of Mus musculus with 9 samples.

Results

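The genes described here are direct or widely used targets of the transcription factor p53, together with p53 itself and the proteins that hold it in check. Of 32 genes in the list, 29 were measured. Each was read from its brightest probe set, meaning the probe set that carries that gene symbol alone and has the highest mean over the 9 arrays, and 18193 genes in all were read in this way. The other 3, Trp53, Bax and Gdf15, had no such probe set in the annotation used and are not analysed here, so nothing below is a measurement of p53 mRNA or protein.

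RNA was profiled on Affymetrix MG-430 2.0 arrays in 3 mouse cell lines of C57/BL6 x sv129 background, with 3 arrays per line. The tumour line, MDA-F471, came from a lung adenocarcinoma of a female Gprc5a-knockout mouse, 16 months after the animal was injected with the tobacco carcinogen NNK. The knockout line came from the trachea of a 3-week-old Gprc5a-knockout mouse and the wild-type line from the trachea of a 3-week-old Gprc5a wild-type mouse, and both are described as non-tumorigenic. Gprc5a is a retinoic acid-inducible receptor of lung epithelium, and its loss is shared by the tumour and knockout lines. Each group is 1 line, so genotype, animal and culture history cannot be told apart. The tumour line differs from the knockout line in organ, carcinogen exposure and age of the animal as well. The labels do not say that the 3 arrays of a line were separate cultures, and the p-values then measure only the spread between arrays.

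In unstressed cells p53 is kept low by the ubiquitin ligase Mdm2 and its partner Mdm4. DNA damage, oncogene activity through the Arf product of Cdkn2a, and other stresses release p53, which then switches on genes that stop the cell cycle, repair DNA or kill the cell. Mdm2 is itself such a target, which closes a negative feedback loop. In lung epithelium the pathway answers the DNA adducts left by tobacco carcinogens, and it is often lost in lung adenocarcinoma.

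The letters that p53 recognises are a pair of half-sites, and stretches holding one are shown for 6 members that differed between lines and carry a half-site in front of an annotated gene start. Aen has one as well, between its annotated starts, and its stretch is not shown because it may be transcribed. RefSeq promoter windows (GRCm38.p6), running from 250 bases before to 50 bases after a start, were found for 24 of the 32 genes and for 21 of the 29 measured ones. They make up 33 windows, because some genes have several starts. The 10-base p53 half-site consensus was searched without mismatches. It is its own reverse complement, so 1 search covers both strands. It was present in 12 of the 33 windows (36.4%) and in 2745 of the 32851 windows of all genes (8.36%). Those 12 windows belong to 11 genes, because the Aen windows overlap and hold the same half-site. Bax and Trp53, which were not measured, are among the 11. A full site, a pair of half-sites at most 13 bases apart, was present in 1 member window, that of Cdkn1a, and in 24 windows of all genes (0.0731%). The sequences below are 60 bases long and read 5′ to 3′ on the strand of the gene, with the half-sites in capitals.
Cdkn1a, chr17:29090892-29090951, plus strand: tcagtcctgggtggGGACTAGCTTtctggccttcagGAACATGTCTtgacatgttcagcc
Mdm2, chr10:117710910-117710969, minus strand: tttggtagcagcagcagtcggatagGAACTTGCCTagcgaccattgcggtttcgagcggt
Ccng1, chr11:40755437-40755496, minus strand: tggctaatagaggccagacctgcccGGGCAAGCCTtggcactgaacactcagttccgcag
Polk, chr13:96519378-96519437, minus strand: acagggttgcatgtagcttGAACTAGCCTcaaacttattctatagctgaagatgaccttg
Sesn1, chr10:41887241-41887300, plus strand: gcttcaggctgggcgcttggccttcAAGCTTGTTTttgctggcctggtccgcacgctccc
Gadd45a, chr6:67037413-67037472, minus strand: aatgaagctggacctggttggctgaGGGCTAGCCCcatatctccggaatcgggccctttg
The Cdkn1a half-sites begin 73 and 51 bases before the more upstream of its annotated starts, with 12 bases between them. The 10 bases that directly follow the second one, tgacatgttc, miss the consensus at their first base. They were therefore not counted, and which pair p53 binds was not tested. The Polk and Sesn1 stretches lie before a start inside the gene. These are matches of letters in a short window, and sites outside it were not searched.

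Array medians lay between 6.28 and 6.34 log2, and the residual spread of the members (median SD 0.126 log2) was close to that of all genes (0.127). Gprc5a read a mean of 7.02 ± 0.06 log2 on the tumour arrays, 7.16 ± 0.06 on the knockout arrays and 8.57 ± 0.22 on the wild-type arrays (SD, n = 3 each). It was -1.41 ± 0.11 (SE) in the knockout against the wild-type line, and whether its probes lie in the deleted part was not checked. The 3′ to 5′ difference of beta-actin, a sign of RNA integrity, ran from 0.37 to 0.74 log2 on the tumour arrays, from 0.90 to 0.95 on the knockout arrays and from 0.75 to 1.78 on the wild-type arrays. The exact two-sided permutation p of its differences was 0.6 for knockout against wild-type, and 0.1, the smallest that 3 against 3 arrays can give, for both comparisons of the tumour line. Its part in the results below was not tested. The background floor was set at 5.15 log2, the 95th percentile of 27 bacterial control probe sets, and a gene was at background in a line when all its arrays lay under that floor. Of the 6 airway basal cell markers, 3 (Krt17, Trp63 and Col17a1) lay at background on the tumour arrays and 0 on the others, and their summed log2 signal was 34.3 to 34.8 in the tumour, 78.6 to 79.3 in the knockout and 80.2 to 80.9 in the wild-type line. The summed signal of 5 simple epithelium markers was 63.9 to 64.3, 52.3 to 53.8 and 54.5 to 54.8 in the same order. These sums hide opposite moves of single keratins: Krt19 read 11.97, 12.25 and 11.94 on the tumour arrays, 5.41, 5.52 and 5.02 on the knockout arrays, 1 of them under the floor, and 10.21, 10.19 and 10.26 on the wild-type arrays, while Krt18 was higher by 2.55 in the knockout against the wild-type line. Of the markers of other cell types, 4 of 5 leukocyte, 3 of 4 endothelial and 6 of 7 fibroblast genes had at least 1 array at or above the floor in each line. Ptprc, Tie1 and Col3a1 were at background on all arrays. Pecam1 averaged 5.03 on the tumour and 5.10 on the knockout arrays, under the floor. Pecam1, Cdh5, Pdgfra and Lum stayed under the highest bacterial control value of 5.96 on every array. Summed over each whole list, the signals of tumour, knockout and wild-type arrays, in that order, were 32.4 to 32.8, 33.3 to 34.3 and 33.4 to 33.7 for leukocytes, 22.5 to 23.3, 22.2 to 23.5 and 22.6 to 22.9 for endothelium, and 39.7 to 40.1, 39.1 to 40.6 and 39.5 to 40.5 for fibroblasts. The macrophage gene Cd68 was the 1 gene of these lists called, at -1.11 in the tumour against the wild-type line. The part of these markers in the results below was not tested.

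A gene was called when its limma Benjamini-Hochberg adjusted p over all 18193 genes was below 0.05 and its difference was at least 2-fold. In the knockout line 11 of 29 p53 targets rose against the wild-type line (37.9%), where 1.9% of all genes did, and 1 fell (3.45%), where 2.98% of all genes did. Those 12 stand beside 4.88% of all genes called in either direction. Their median log2 difference against the wild-type line was 0.75, and that of all genes was -0.0042. In the tumour line 9 of 29 rose against the wild-type line (31%), where 8.09% of all genes rose, and 3 fell (10.3%), where 8.46% of all genes fell, and 16.6% of all genes were called either way. The median there was 0.46, beside 0.01 for all genes. Between the tumour and knockout lines 2 rose (6.9%, with 7.79% of all genes) and 5 fell (17.2%, with 6.38% of all genes), with a median of -0.35, while 14.2% of all genes were called either way. The members were chosen with earlier results of these data known, so these shares and medians were given no p-value. The comparisons with the wild-type line share its 3 arrays, and those with the knockout line share its arrays too. RNA from whole cultures was measured, so fewer cells with a transcript and less of it per cell cannot be told apart.

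**Figure D1:**
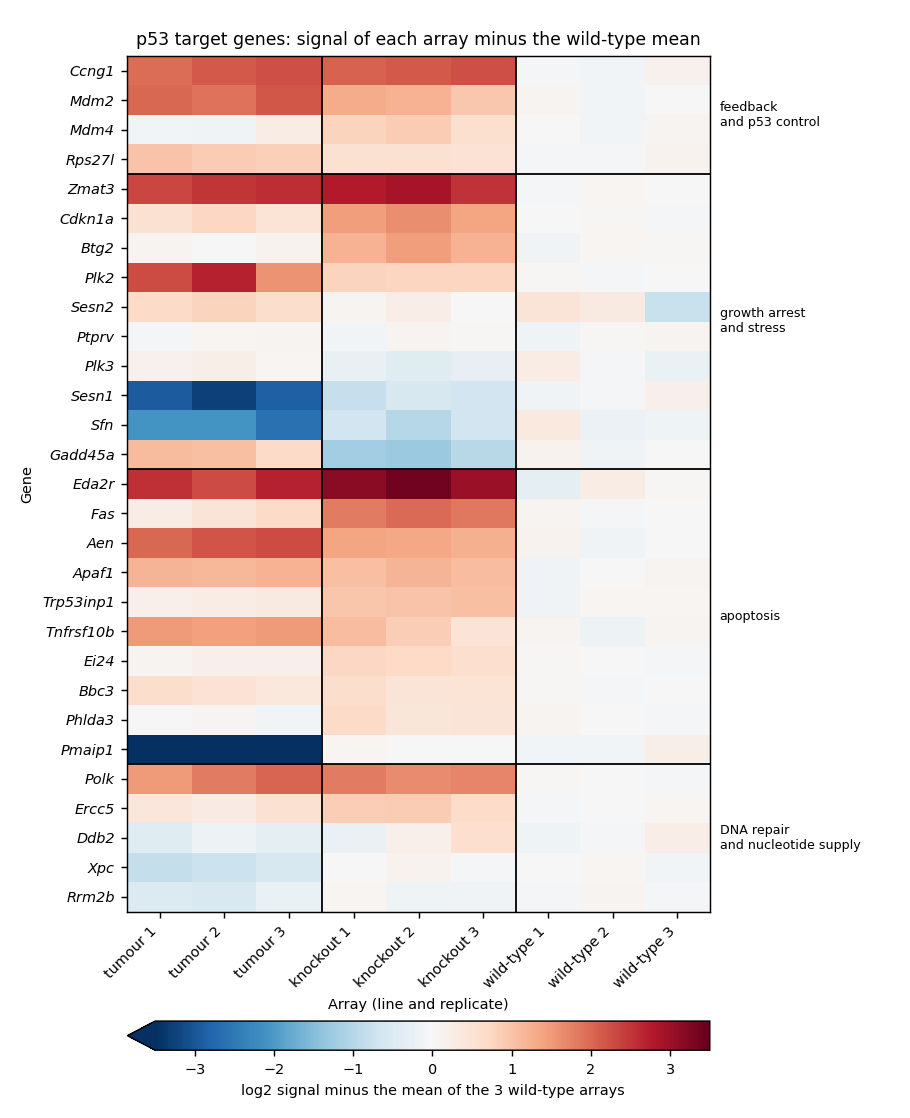
Each row is a p53 target gene and each column an array. Colour gives the log2 signal minus the mean of the 3 wild-type arrays of that gene. Zmat3, Eda2r, Ccng1 and Polk are red on the 6 tumour and knockout arrays, Fas and Btg2 are deepest on the knockout arrays, and Pmaip1 (below the colour scale), Sesn1 and Sfn are blue on the tumour arrays.

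With the adjusted p alone and no fold threshold, 19 members were higher in the knockout against the wild-type line (10.2% of all genes) and 3 lower (16.2%). The same counts were 17 (24% of all genes) and 5 (23.4%) for the tumour against the wild-type line, and 7 (23.8%) and 15 (20.7%) for the tumour against the knockout line. Many smaller differences thus went the same way as the called ones between the tracheal lines. In the knockout line 19 of the 29 members lay above all wild-type arrays, where 16.7% of all genes did, and 4 lay below them, where 22.4% did. Of the tumour arrays the same holds for 18 members above (28.4% of all genes) and 6 below (26.3%) the wild-type arrays. Against the knockout arrays 8 members lay above (27.4% of all genes) and 14 below (24.9%).

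**Figure D2:**
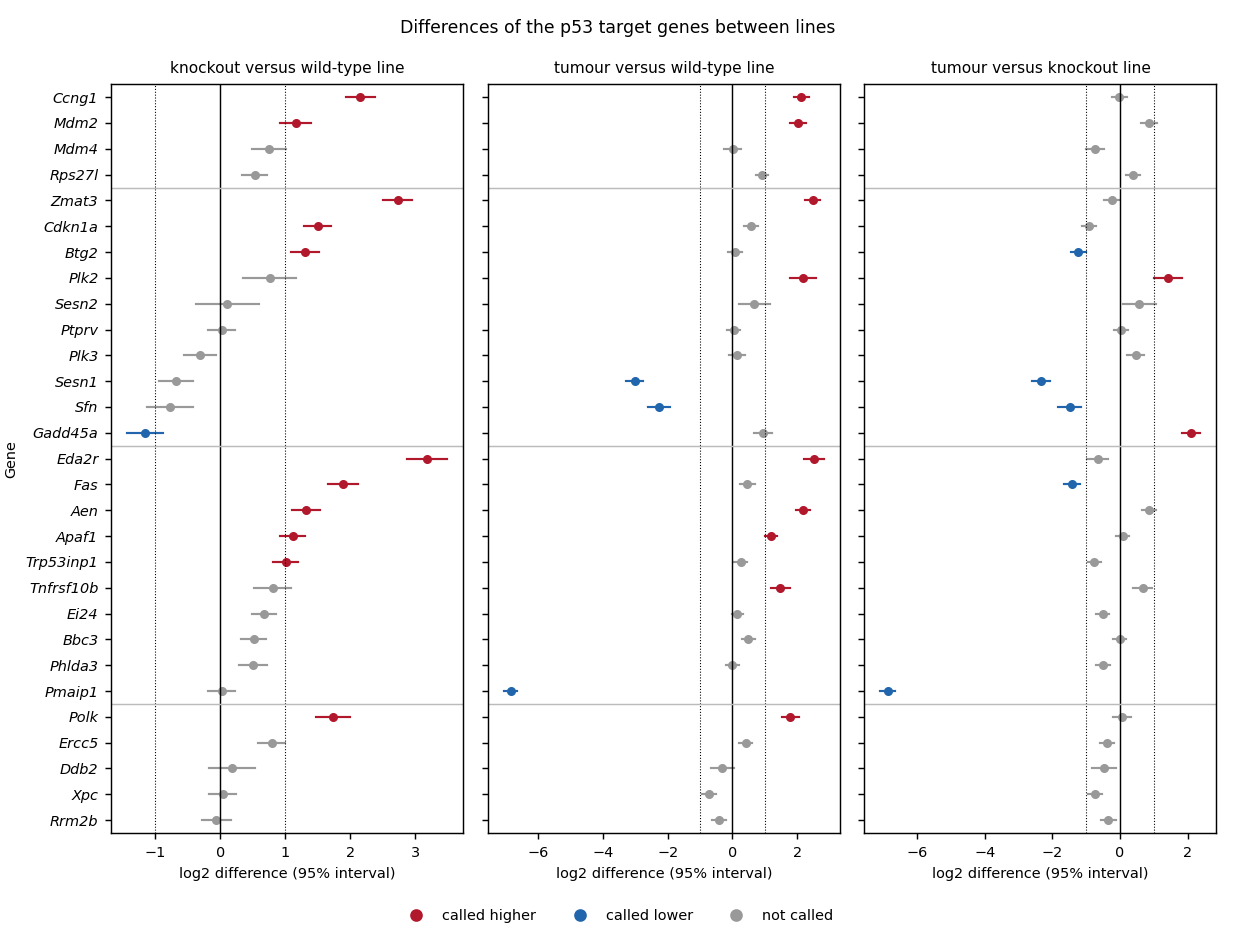
Log2 difference of each p53 target gene in the 3 comparisons, with the 95% interval of limma's moderated fit (n = 3 arrays per line). Red points were called higher, blue points called lower and grey points not called, and dotted lines mark a 2-fold difference. The horizontal scale differs between panels. Eda2r has the largest rise in the left panel (3.18) and Pmaip1 the largest fall in the other panels (-6.85 and -6.87).

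Of the 4 measured genes of the feedback loop, 2 rose (50%) and 0 fell in each null line when set against the wild-type line. Of all genes, 1.9% rose and 2.98% fell in the knockout line, and 8.09% and 8.46% in the tumour line. Mdm2, the ligase, was highest in the tumour line. Mdm2 read 12.51, 12.41 and 12.67 log2 on the tumour arrays, 11.81, 11.73 and 11.46 on the knockout arrays and 10.61, 10.40 and 10.51 on the wild-type arrays. The 3 lines did not overlap. It rose by 1.16 ± 0.11 log2 (SE) in the knockout against the wild-type line (2.24-fold, limma adjusted p = 1.51e-06) and by 2.02 ± 0.11 in the tumour against the wild-type line (4.06-fold, adjusted p = 8.11e-10). The tumour line exceeded the knockout line by 0.86 ± 0.11, short of 2-fold (adjusted p = 1.09e-05). With the mean of its probe sets the knockout difference was 0.95 and no longer called.

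Ccng1 encodes cyclin G1, which recruits a phosphatase to Mdm2. It read 12.32, 12.51 and 12.62 on the tumour arrays, 12.41, 12.51 and 12.60 on the knockout arrays and 10.32, 10.25 and 10.50 on the wild-type arrays. The tumour and knockout arrays covered the same range, about 2 log2 units above the wild-type arrays. It rose by 2.15 ± 0.10 in the knockout line (4.44-fold, adjusted p = 1.14e-09) and by 2.13 ± 0.10 in the tumour line (4.37-fold, adjusted p = 2.44e-10) against the wild-type line. Between tumour and knockout lines its difference was -0.02 ± 0.10, with a 95% interval from -0.25 to 0.20.

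Mdm4 and Rps27l, a ribosomal protein paralogue that binds Mdm2, were not called in any comparison. Mdm4 averaged 8.06 ± 0.21 in the tumour, 8.80 ± 0.17 in the knockout and 8.05 ± 0.11 in the wild-type line (SD, n = 3). Its knockout excess of 0.75 ± 0.12 rests on a probe set ending in _s_at, and its other 3 probe sets differed by 0.04 to 0.19 in that comparison. Rps27l averaged 13.16 ± 0.09, 12.78 ± 0.02 and 12.25 ± 0.12 in the same order, a tumour excess of 0.91 ± 0.09 over the wild-type line (adjusted p = 7.24e-07) that stayed under 2-fold. Its brightest probe set ends in _x_at and can bind close relatives such as Rps27. A further probe set without that ending gave 0.96.

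The 10 growth arrest and stress genes had no common direction. In the knockout against the wild-type line 3 rose (30%, with 1.9% of all genes) and 1 fell (10%, with 2.98%). In the tumour line 2 rose (20%, with 8.09% of all genes) and 2 fell (20%, with 8.46%) against the wild-type line. Against the knockout line 2 rose (20%, with 7.79% of all genes) and 3 fell (30%, with 6.38%). The inhibitor of cyclin-dependent kinases Cdkn1a (p21), the main arrest gene of the pathway, was highest in the knockout line. It read 11.98, 12.15 and 11.92 on the tumour arrays, 12.90, 13.07 and 12.82 on the knockout arrays and 11.45, 11.48 and 11.38 on the wild-type arrays, without overlap between lines. It rose by 1.49 ± 0.10 in the knockout against the wild-type line (2.82-fold, adjusted p = 2.94e-08). The tumour line lay 0.58 ± 0.10 above the wild-type line (adjusted p = 0.000143) and differed from the knockout line by -0.91 ± 0.10 (adjusted p = 1.74e-06), both under 2-fold.

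Zmat3, an RNA-binding zinc finger protein that changes splicing and slows growth, read 10.71, 10.86 and 10.95 on the tumour arrays, 11.13, 11.25 and 10.90 on the knockout arrays and 8.32, 8.43 and 8.34 on the wild-type arrays. Only the wild-type arrays stood apart. It rose 6.64-fold in the knockout line (2.73 ± 0.10, adjusted p = 9.33e-11) and 5.57-fold in the tumour line (2.48 ± 0.10, adjusted p = 4.41e-11) against the wild-type line. Btg2, an antiproliferative cofactor of mRNA deadenylation, averaged 9.74 ± 0.06 in the tumour, 10.97 ± 0.15 in the knockout and 9.67 ± 0.10 in the wild-type line. It rose by 1.30 ± 0.10 in the knockout against the wild-type line (adjusted p = 1.39e-07), and the difference of tumour against knockout was -1.23 ± 0.10 (adjusted p = 6.98e-08). Between tumour and wild-type lines it was 0.07 ± 0.10 (95% interval -0.14 to 0.28). A second, dimmer Btg2 probe set gave -0.70 ± 0.28 there, not called, and -2.20 ± 0.28 for tumour against knockout.

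Gadd45a, which binds PCNA and p21 and activates stress kinases, ran the other way and was the member that fell in the knockout against the wild-type line. Its arrays read 9.94, 9.88 and 9.50 in the tumour, 7.60, 7.55 and 7.86 in the knockout and 8.97, 8.70 and 8.83 in the wild-type line. The knockout arrays were the lowest and the tumour arrays the highest, with no overlap. The knockout difference was -1.16 ± 0.13 against wild-type (adjusted p = 6.54e-06), and the tumour line was 4.29-fold above the knockout line (2.10 ± 0.13, adjusted p = 3.07e-09). Against the wild-type line the tumour excess of 0.94 ± 0.13 was not called. It passed 2-fold without tumour replicate 3 (1.08) and without wild-type replicate 1 (1.01).

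Plk2, a polo-like kinase of centriole duplication and stress checkpoints, was highest and most variable in the tumour line. It read 11.52, 11.94 and 10.83 on the tumour arrays, 10.02, 9.99 and 10.00 on the knockout arrays and 9.28, 9.20 and 9.25 on the wild-type arrays. It rose by 1.43 ± 0.19 in the tumour against the knockout line (adjusted p = 1.68e-05) and by 2.18 ± 0.19 against the wild-type line (adjusted p = 1.52e-07). With the mean of its probe sets the tumour against knockout difference was 0.69 and the call was lost. Its relative Plk3 was not called (differences from -0.32 to 0.46).

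Sesn1 and Sfn fell in the tumour line in both comparisons. Sesn1, a sestrin that restrains mTORC1 signalling under stress, read 7.27, 6.91 and 7.32 on the tumour arrays, 9.38, 9.62 and 9.52 on the knockout arrays and 10.06, 10.16 and 10.35 on the wild-type arrays. All 3 lines were separate. It was -2.34 ± 0.12 for tumour against knockout (5.07-fold lower, adjusted p = 5.53e-10) and -3.02 ± 0.12 against the wild-type line (8.12-fold lower, adjusted p = 2.62e-11). For knockout against wild-type it was -0.68 ± 0.12 and not called.

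Sfn encodes stratifin, an epithelial protein that keeps mitotic cyclin and kinase out of the nucleus and is also a marker of squamous cells. It read 9.01, 9.03 and 8.51 on the tumour arrays, 10.45, 10.12 and 10.46 on the knockout arrays and 11.46, 10.92 and 10.98 on the wild-type arrays, again without overlap. The difference was -1.49 ± 0.16 for tumour against knockout (adjusted p = 2.14e-06), -2.27 ± 0.16 against the wild-type line (adjusted p = 1.84e-08) and -0.77 ± 0.16, not called, for knockout against wild-type. The basal cell markers given above were low on the same tumour arrays, and their part in the Sfn result was not tested. Sesn2, another sestrin, was not called and had 1 low wild-type array (7.07, against 8.17 and 8.31 on the others). Its second probe set was called higher in the tumour against the wild-type line (1.18 ± 0.09, limma adjusted p = 5.22e-07 over all non-control probe sets). Ptprv, a receptor-type phosphatase of p53-dependent arrest in mice, differed by 0.02 to 0.04 over the 3 comparisons.

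**Figure D3:**
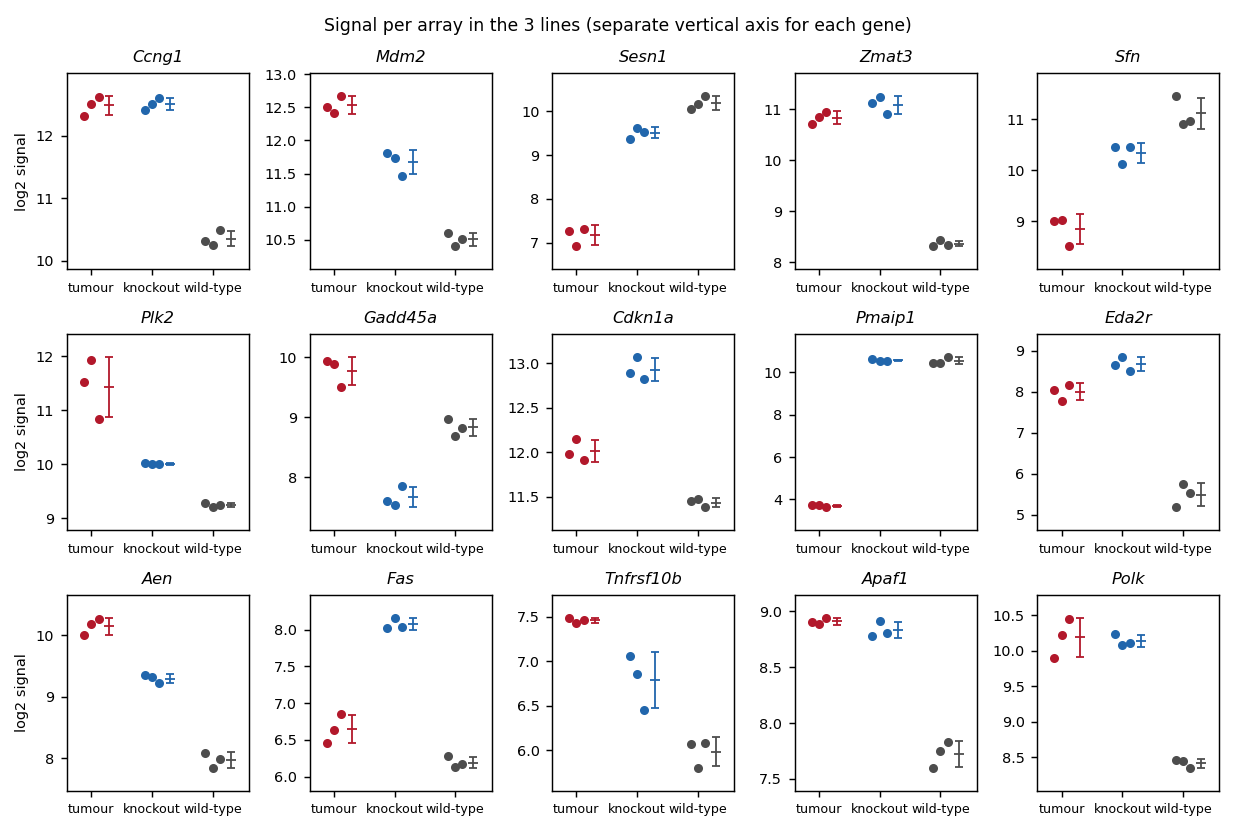
Log2 signal of each array for the 15 members with the largest called differences in their role, with the tumour line at the left of each panel, the knockout line in the middle and the wild-type line at the right. Points are arrays, and the bar beside them is the mean ± SD (n = 3). Each panel has its own vertical axis. Ccng1, Zmat3, Apaf1 and Polk are high in the tumour and knockout lines, Cdkn1a and Fas peak in the knockout line, and Pmaip1 is near 4 in the tumour line.

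Of the 10 measured apoptosis genes, 5 rose (50%) and 0 fell in the knockout against the wild-type line, where 1.9% and 2.98% of all genes did. In the tumour line 4 rose (40%, with 8.09% of all genes) and 1 fell (10%, with 8.46%) against the wild-type line. Against the knockout line 0 rose (7.79% of all genes) and 2 fell (20%, with 6.38%). The gene that fell in both tumour comparisons was Pmaip1. Pmaip1 encodes Noxa, a BH3-only protein that neutralises the survival factor Mcl1. It read 3.72, 3.74 and 3.63 on the tumour arrays, 10.61, 10.55 and 10.54 on the knockout arrays and 10.45, 10.46 and 10.74 on the wild-type arrays. The tumour arrays lay under the background floor of 5.15 log2. Tumour Pmaip1 signal was lower by at least 42.8-fold against the knockout line (adjusted p = 7.24e-16) and at least 42.2-fold against the wild-type line (adjusted p = 6.02e-16). The knockout and wild-type lines differed by 0.02 ± 0.10. No other member was at background in any line, and Pmaip1 has 1 probe set here, so no second reading of it was available.

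Eda2r, the ectodysplasin receptor of the TNF receptor family, had the largest measured rise among the members between the tracheal lines. It read 8.05, 7.78 and 8.17 on the tumour arrays, 8.64, 8.85 and 8.51 on the knockout arrays and 5.18, 5.74 and 5.54 on the wild-type arrays. The wild-type arrays lay just above the floor of 5.15 and under the highest bacterial control value of 5.96, so they were within the range of the controls and the folds are to be read as lower limits. It rose 9.06-fold in the knockout line (3.18 ± 0.14, adjusted p = 5.15e-10) and 5.71-fold in the tumour line (2.51 ± 0.14, adjusted p = 1.37e-09) against the wild-type line.

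The death receptor genes Fas and Tnfrsf10b were ordered differently in the null lines. Fas read 6.46, 6.63 and 6.85 on the tumour arrays, 8.02, 8.16 and 8.04 on the knockout arrays and 6.27, 6.13 and 6.17 on the wild-type arrays. It rose by 1.88 ± 0.11 in the knockout against the wild-type line (adjusted p = 4.92e-09), and the tumour against knockout difference was -1.43 ± 0.11 (adjusted p = 2.96e-08). The tumour line lay 0.46 ± 0.11 above the wild-type line and was not called. Tnfrsf10b, the mouse TRAIL receptor, read 7.49, 7.42 and 7.46 on the tumour arrays, 7.06, 6.85 and 6.45 on the knockout arrays and 6.07, 5.80 and 6.09 on the wild-type arrays. It rose by 1.47 ± 0.13 in the tumour against the wild-type line (adjusted p = 2.46e-07), while its differences of 0.80 ± 0.13 for knockout against wild-type and 0.67 ± 0.13 for tumour against knockout stayed under 2-fold. With the mean of its probe sets the tumour against knockout difference was 1.06 and was called.

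Aen, an exonuclease that fragments DNA during apoptosis, read 10.00, 10.17 and 10.27 on the tumour arrays, 9.35, 9.32 and 9.22 on the knockout arrays and 8.09, 7.84 and 7.99 on the wild-type arrays. On this brightest probe set the lines were ordered tumour, knockout, wild-type without overlap. Further Aen probe sets gave 1.10, 0.33 and -0.08 for tumour against knockout. On the brightest one Aen rose by 1.32 ± 0.10 in the knockout line (adjusted p = 1.52e-07) and by 2.17 ± 0.10 in the tumour line (adjusted p = 1.32e-10) against the wild-type line. Apaf1, the scaffold of the apoptosome, read 8.90, 8.89 and 8.94 on the tumour arrays, 8.78, 8.92 and 8.81 on the knockout arrays and 7.60, 7.75 and 7.83 on the wild-type arrays, so tumour and knockout arrays overlapped above the wild-type arrays. It rose by 1.11 ± 0.09 in the knockout line (adjusted p = 3.19e-07) and by 1.19 ± 0.09 in the tumour line (adjusted p = 3.55e-08).

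Trp53inp1, a stress-induced cofactor of p53 and autophagy protein, averaged 12.01 ± 0.06 in the tumour, 12.76 ± 0.04 in the knockout and 11.76 ± 0.11 in the wild-type line. Its knockout difference of 1.01 ± 0.09 (adjusted p = 7.74e-07) sat at the 2-fold threshold. The call was lost without knockout replicate 3 (0.98), without wild-type replicate 1 (0.94) and with each array centred on its median (0.99). Bbc3, which encodes the BH3-only protein Puma, Ei24, of the endoplasmic reticulum, and the Akt inhibitor Phlda3 were not called in any comparison. In the knockout against the wild-type line they differed by 0.51 ± 0.09, 0.67 ± 0.08 and 0.50 ± 0.10. In the tumour against the knockout line Bbc3 differed by -0.01 ± 0.09, Ei24 by -0.51 ± 0.08 and Phlda3 by -0.50 ± 0.10.

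Of the 5 genes of DNA repair and nucleotide supply, 1 was called. This gene rose in both the knockout and the tumour line against the wild-type line (20%, with 1.9% and 8.09% of all genes). Polk, a translesion polymerase that copies past bulky DNA adducts, read 9.90, 10.22 and 10.45 on the tumour arrays, 10.24, 10.08 and 10.11 on the knockout arrays and 8.45, 8.44 and 8.34 on the wild-type arrays. The null lines overlapped and both lay above the wild-type arrays. It rose 3.32-fold in the knockout line (1.73 ± 0.12, adjusted p = 6.08e-08) and 3.43-fold in the tumour line (1.78 ± 0.12, adjusted p = 9.6e-09).

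The nucleotide excision repair genes stayed under 2-fold. Ercc5, an endonuclease that cuts beside the lesion, averaged 8.47 ± 0.12 in the tumour, 8.85 ± 0.13 in the knockout and 8.06 ± 0.06 in the wild-type line, a knockout excess of 0.79 ± 0.10 over wild-type (adjusted p = 2.31e-05). Xpc, which finds distorted DNA, averaged 8.32 ± 0.14, 9.07 ± 0.08 and 9.04 ± 0.09 in that order, and the tumour arrays lay below all others (difference against knockout -0.75 ± 0.10, adjusted p = 1.33e-05). Ddb2, which finds ultraviolet lesions, differed by -0.48 ± 0.17 and Rrm2b, the p53-inducible subunit of ribonucleotide reductase, by -0.35 ± 0.10 in the tumour against the knockout line, with adjusted p of 0.0278 and 0.0104.

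Across the members as a whole, the arrays of a line were alike. The median over the 29 members of the signal minus the wild-type mean was 0.38, 0.44 and 0.48 log2 on the tumour arrays and 0.77, 0.75 and 0.59 on the knockout arrays, against 0.01, -0.03 and 0.00 on the wild-type arrays. The lowest knockout array therefore lay above the highest tumour array. By role, the median knockout against wild-type difference was 0.96 for the 4 feedback genes, 0.90 for the 10 apoptosis genes, 0.18 for the 5 repair genes and 0.06 for the 10 arrest and stress genes. Rises were called for 2, 5, 1 and 3 genes in that order (50%, 50%, 20% and 30%), where 1.9% of all genes rose. For tumour against knockout the medians were 0.18, -0.51, -0.39 and -0.11. Of all genes, 4.88% were called either way between the tracheal lines. With the tumour line, 14.2% were called beside the knockout line and 16.6% beside the wild-type line. The share of all genes called in at least 1 comparison was not counted. In all, 17 members were called in at least 1 comparison, so this count has no all-gene share to be judged by. The other 12 ranged from -0.32 to 0.79 for knockout against wild-type, from -0.75 to 0.57 for tumour against knockout and from -0.72 to 0.91 for tumour against wild-type.

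Other probe sets of the same genes gave a second reading for 17 of the 29 members. The calls here come from a separate limma fit, adjusted over all non-control probe sets. Of the 8 such members called between knockout and wild-type lines, 8 had a further probe set with the same call. The count was 7 of 8 for tumour against wild-type and 2 of 3 for tumour against knockout. A second Cdkn1a probe set gave 1.45 for knockout against wild-type and a second Btg2 probe set 1.50. Both further Ccng1 probe sets were higher on tumour than on knockout arrays, by 0.58 and 0.64, while the brightest one differed by -0.02. Probe sets of Mdm2 and Plk2 that read near 5 and near 6 log2 in every line differed by -0.08 and -0.12 for tumour against wild-type. Further probe sets were called where the brightest was not for Sesn2 and Trp53inp1 (1.18 and 1.03 for tumour against wild-type), Aen (1.10 for tumour against knockout) and Tnfrsf10b (1.02 for knockout against wild-type and 1.44 for tumour against knockout). No member had another probe set called in the opposite direction.

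**Figure D4:**
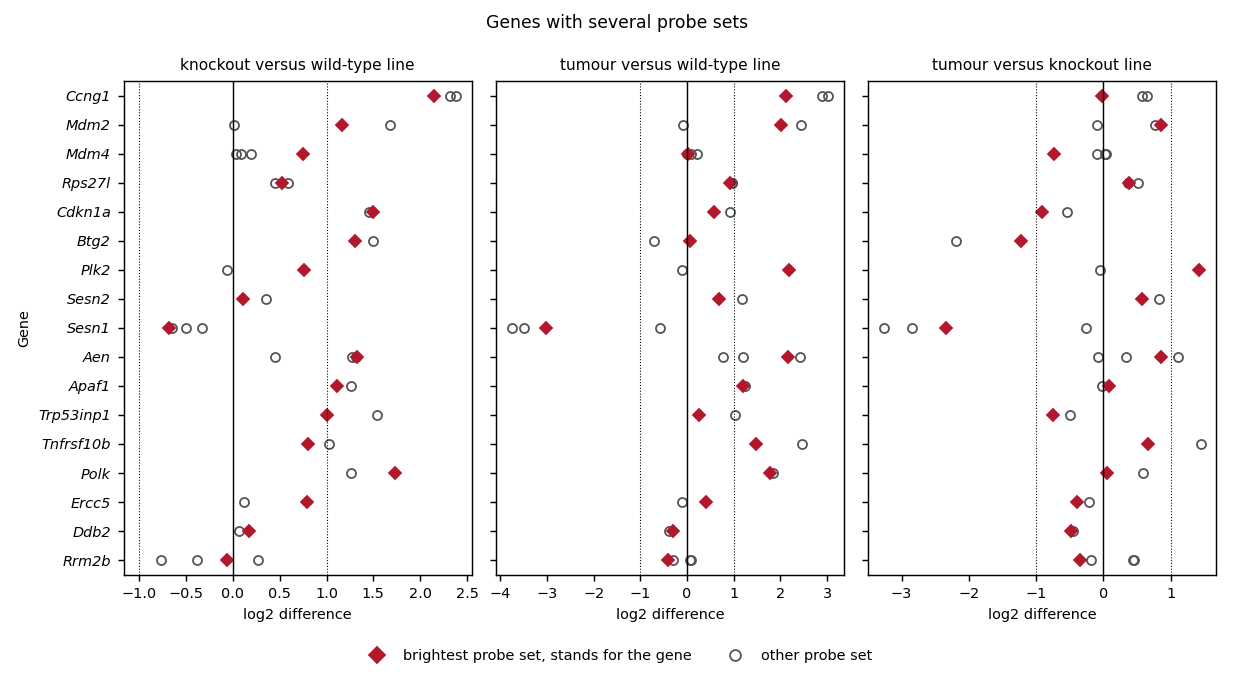
Log2 difference of every probe set for the 17 genes with more than 1. Filled diamonds are the brightest probe set, which stands for the gene, and open circles the others. Dotted lines mark a 2-fold difference, and the horizontal scale differs between panels. The Ccng1, Cdkn1a, Btg2, Apaf1 and Polk probe sets lie together for knockout against wild-type, while the dim ones of Mdm2, Mdm4 and Plk2 lie near 0.

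Of 21 measured regulators and family members of p53, 0 rose and 2 fell (9.52%) in the knockout against the wild-type line, where 2.98% of all genes fell. The fallen ones were Cdkn2a, the locus of the inhibitor p16 and of Arf, which blocks Mdm2, and Trp63, the p53 relative that maintains basal epithelium. Cdkn2a read 5.34, 5.12 and 5.12 on the tumour arrays, 6.86, 7.03 and 6.82 on the knockout arrays and 9.07, 8.99 and 8.52 on the wild-type arrays. The lines did not overlap, but 2 of the 3 tumour arrays were under the background floor, so the sizes of the tumour differences are to be read as lower limits. Its knockout signal lay at -1.96 ± 0.13 relative to wild-type (adjusted p = 3.79e-08), and its tumour signal at -1.71 ± 0.13 relative to knockout (adjusted p = 4.57e-08) and -3.67 ± 0.13 relative to wild-type (adjusted p = 7.44e-12). The tumour line had 2 regulators higher and 2 lower (9.52% each) in either comparison, close to the shares of all genes given above (6.38% to 8.46%). The checkpoint kinase gene Chek1 rose by 1.85 ± 0.12 against the knockout line and by 1.41 ± 0.12 against the wild-type line, and the damage sensor kinase gene Atr by 1.13 ± 0.11 and 1.32 ± 0.11. Tumour Trp63, which is itself among the basal cell markers given above, was lower by at least 46.5-fold against the knockout line.

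Of 23 further p53 targets measured, 3 rose (13%) and 2 fell (8.7%) in the knockout against the wild-type line, where 1.9% and 2.98% of all genes did, with a median of -0.0004. The largest of these were Dram1, of autophagy (-2.88 ± 0.14), Dcxr, a carbonyl reductase (2.10 ± 0.13), the matrix glycoprotein gene Thbs1 (1.78 ± 0.21) and the cytokine gene Lif (1.31 ± 0.10). Against the wild-type line the tumour line had 9 of them higher (39.1%, with 8.09% of all genes) and 4 lower (17.4%, with 8.46%). Thbs1 rose by 3.96 ± 0.21 and Lif by 3.15 ± 0.10, while Igfbp3, which binds insulin-like growth factors, and Perp, of desmosomes, differed by -2.57 ± 0.10 and -2.08 ± 0.10. Between tumour and knockout lines 9 were higher (7.79% of all genes) and 4 lower (6.38%), with a median of 0.69. These genes answer to several pathways beside p53, and the part of those pathways in the differences was not tested.

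Cell cycle genes that p21 represses through the DREAM complex were higher in the tumour line. Of 18 measured, 17 rose (94.4%, with 7.79% of all genes) and 0 fell (6.38% of all genes) against the knockout line (median 2.01). Against the wild-type line 17 rose (94.4%, with 8.09% of all genes) and 0 fell (8.46% of all genes), with a median of 1.89. Examples against the knockout line were the checkpoint kinase gene Bub1 (3.13 ± 0.13), the kinesin gene Kif23 (2.99 ± 0.09), the mitotic kinase gene Aurka (2.68 ± 0.11) and Cdc20, an activator of the anaphase-promoting complex (2.35 ± 0.11). In the knockout line 0 rose (1.9% of all genes) and 1 fell (5.56%, with 2.98% of all genes) against the wild-type line. The gene that fell was the replication helicase gene Mcm5 (-1.16 ± 0.13), and the median of the list was -0.14. Cdkn1a, the gene of p21, lay between the other lines on the tumour arrays, as given above, and its part in the cell cycle differences was not tested.

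**Figure D5:**
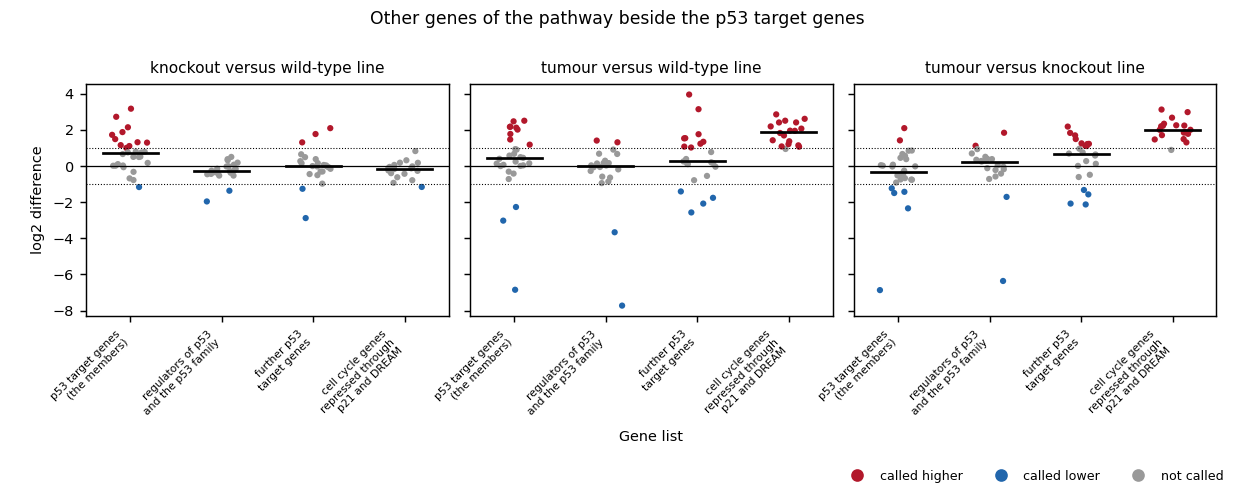
Log2 differences of the 29 p53 target genes and of the 3 other lists in each comparison. Points are genes, red where called higher, blue where called lower and grey where not called. Thick bars are medians and dotted lines a 2-fold difference. The cell cycle list sits near 2 in both tumour comparisons and near 0 for knockout against wild-type, where the p53 targets have a median of 0.75.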

How the data were processed

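The deposited values are log2 signals, 1 per probe set and array, for 45101 probe sets. The sources used here do not give the authors' correction, summarization or scaling steps. Per the labels' protocols, column-purified total RNA was turned into biotin-labelled cRNA. Probe sets were named by the platform annotation: 34945 carried 1 symbol, 64 were controls. Each gene was read from its brightest single-symbol probe set. One linear model over all 9 arrays was fitted to 18193 genes with limma 3.58.1 (lmFit, eBayes without trend, 6 residual degrees of freedom) in R 4.3.3. All limma p-values are two-sided, and those of genes are adjusted over all genes. Calls and adjusted p of further probe sets come from the same model fitted to all non-control probe sets and are adjusted over those. The procedure was tested on simulated data. The array number limits the precision, since arrays give no counts.

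Lower bounds of folds use the 95th percentile of 27 bacterial control probe sets (5.15 log2). Values in every array are given for up to 6 called members per role with the largest difference; Btg2 and Trp53inp1 ranked lower. Of each other list, up to 4 called genes per comparison were open to naming. Members, roles and lists were chosen with earlier results of these data known, so no list was given a p-value. Replicate numbers come from the sample titles. Alternatives were other scaling, probe set choice, filters, fold thresholds, variance models, a replicate block and leaving out each array.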

Additional observations from a re-analysis of the deposited data

How the results depend on the processing

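All 31 called member differences kept their direction under 17 alternatives (scaling, probe set choice, filter, variance model, 6-array fits, replicate block and each array left out). Of 1479 values there, 5 lost and 3 gained a call, and 30 uncalled values changed sign, none of them larger than 0.353 in the reported values. Some of these values could not turn a sign. With equal array numbers, the variance model, the 6-array fits and the replicate block leave every log2 difference as it was. So does leaving out an array of the line not compared. Without a fold threshold, 19 members were higher (10.2% of all genes) and 3 lower (16.2%) in the knockout against the wild-type line. These counts were 7 (23.8%) and 15 (20.7%) for the tumour against the knockout line, and 17 (24%) and 5 (23.4%) against the wild-type line. At 1.5-fold, Mdm4, Plk2, Tnfrsf10b, Ei24 and Ercc5 joined the 11 members called higher in the knockout against the wild-type line. Of all 18193 genes, 869 were higher there. In the same comparison 3 members were lower, as were 1309 of all genes. In the tumour against the knockout line 5 members were higher (2661 of all genes) and 10 lower (2220 of all genes). With each gene's probe sets averaged the medians were 0.51 for knockout against wild-type and -0.19 for tumour against knockout. Leaving out 1 array gave medians of 0.67 to 0.76 for knockout against wild-type, -0.44 to -0.29 for tumour against knockout, and 0.36 (without tumour replicate 3) to 0.50 for tumour against wild-type. Taken alone, a dim Plk2 probe set gave -0.051 in the tumour against the knockout line and -0.12 against the wild-type line, and a dim Mdm2 probe set gave -0.080 in the tumour against the wild-type line. The Mdm2 probe set read close to background and the Plk2 one did not, and the cause was not tested. The replicate numbers only name arrays, and same-numbered arrays did not deviate together in every pair of lines (correlations of deviations from -0.14 to 0.12). With the replicate block 11 members were higher in the knockout against the wild-type line, as without it, and no member count changed. The block could change only the p-values, not the log2 differences. Signals near the floor of 5.15 limit what can be said of Eda2r in the wild-type line and of Pmaip1 and Cdkn2a in the tumour line.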
